A study of Mus musculus with 18 samples.

Results

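The responses of mouse eosinophils to interferon-γ (IFN-γ) and to Escherichia coli (E. coli) were examined as a 2 x 2 design, in which each stimulus was given alone, both were given together, or neither was given. Eosinophils in all 4 groups were cultured with apoptotic cells (ACs), so that the reference group is ACs alone. All genes with a mean of at least 10 normalized counts over the 12 libraries were taken, which gave 10166 of the 54446 genes of the table, and 12 of the 18 libraries of the series. A gene responded additively when the log2 effect of the combination equalled the sum of the log2 effects of IFN-γ alone and E. coli alone. The departure from that sum is the interaction, computed as combined minus IFN-γ minus E. coli plus ACs alone. On the count scale an additive gene multiplies its fold changes. Genes above that product are called above additive, and genes below it below additive.

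The groups were ACs, E. coli + ACs, IFN-γ + ACs and IFN-γ + E. coli + ACs, with 3 libraries each. Eosinophils came from the peritoneal cavity of NJ.1638 Il5 transgenic mice, which make IL-5 under a T cell promoter and carry a large eosinophil excess, and the labels give the strain as C57BL/6. ACs were wild-type thymocytes made apoptotic by dexamethasone, and were added at 5 per eosinophil for 18 h. The study's results state that IFN-γ was followed by E. coli in the combined group. An effect of this order on the interaction was not tested and cannot be told apart here. Per its methods, the cultures were sorted a further time on magnetic anti-Siglec-F beads before lysis. The doses, the interval between the stimuli, and the age and sex of the mice that gave the eosinophils were not given in the sources used here. Since every group held ACs, the design does not separate the response to a stimulus from a response that needs ACs. The labels number the libraries of a group 1 to 3 without saying whether they came from separate animals. The study states 3 biological replicates for its experiments. Where it compared eosinophils with and without ACs, it gives a different mouse for each lane. Whether this holds for each library used here was not given, so p-values measure the spread between these libraries, which may in part be technical.

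IFN-γ signals through its receptor, the kinases JAK1 and JAK2 and STAT factors that bind GAS elements, and induces IRF1, guanylate-binding proteins (GBPs), antigen presentation genes and inducible nitric oxide synthase. E. coli carries lipopolysaccharide, which is sensed through CD14 and TLR4 and leads to NF-kB and AP-1 activation, cytokines and chemokines, and to feedback regulators such as IL-10. Macrophages treated with both are the textbook model of Type 1 activation, and some promoters carry elements for both pathways. Eosinophils are granulocytes that depend on IL-5, and are studied mostly in Type 2 settings.

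Libraries held 2216917 to 5078760 reads on genes (median 4162349), and those with IFN-γ were the shallower ones. One read was worth 0.8132 to 2.0521 normalized counts, so that 3 reads correspond to 2.44 to 6.16 normalized counts, and values at or under that level are near the limit of detection. The labelled cell type was checked against 8 eosinophil markers, of which Siglecf, Ccr3 and Ear6 carried most of the signal. Epx, the eosinophil peroxidase gene, stayed at group means between 0.54 and 2.32 normalized counts and Ear1 did not exceed a group mean of 13.0, so these 2 granule genes were near or under detection. A library of the combined group, replicate 2, stood apart from its replicates. It held 2487 normalized counts of Gm42418 against 187 and 99.3, and 14789 of Actb against 3797 and 3320. IFN-γ + ACs replicate 3 had the fewest reads.

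In the 12 libraries, 321 genes were above additive and 435 below it (limma adjusted p under 0.05 and an interaction of at least 1.5-fold), which is 3.16% and 4.28% of the 10166 genes tested and 7.44% together. The median interaction over all genes tested was -0.03 on the log2 scale. Genes at least 4-fold away from additivity numbered 31 above and 58 below. Without both IFN-γ + ACs replicate 3 and combined replicate 2, an alternative chosen after seeing the data, 572 genes were above and 744 below additive, and 293 and 383 of these were among the 321 and 435. Leaving out single libraries gave 162 to 443 genes above and 239 to 581 below. Counts fell by more than 1.5 times without E. coli + ACs replicate 1 (162 and 239) or ACs replicate 3 (178 and 261), for the genes above additive without ACs replicate 2 (190), and for those below without IFN-γ + ACs replicate 2 (272). No gene called in the 12 libraries was called in the opposite direction in any of these alternatives.

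**Figure D1:**
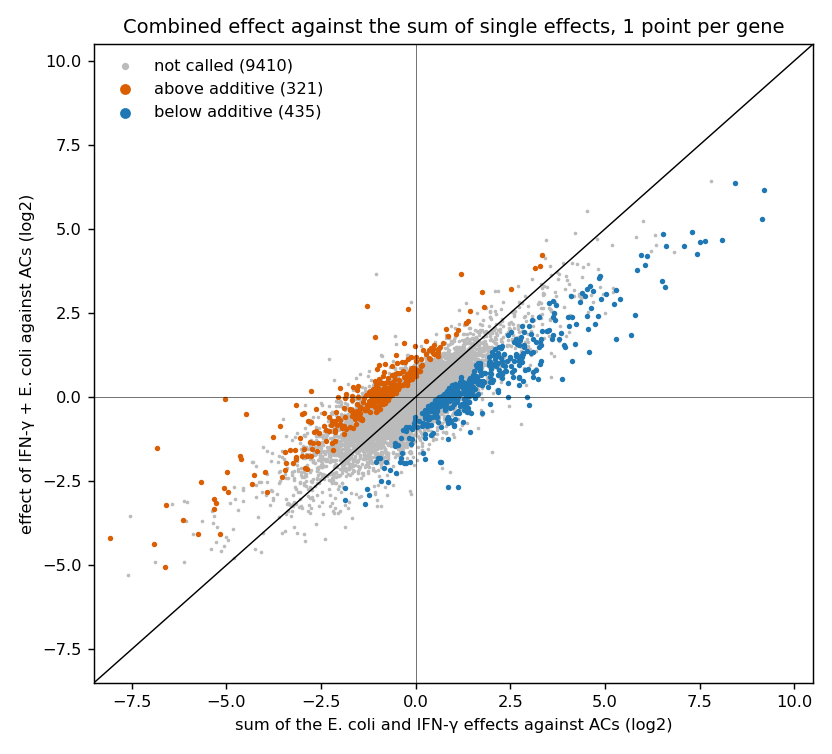
Each point is 1 of the 10166 genes, with the sum of the E. coli and IFN-γ effects against ACs on the x axis and the effect of the combination on the y axis, both in log2 units, and the diagonal marking an additive response. The 435 genes below additive (blue) lie mostly right of 0, where single stimuli raised the gene, and the 321 above additive (orange) lie mostly left of 0. Both axes use the same ACs libraries.

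Single contrasts set the ground for the classes used next. E. coli + ACs changed 1047 genes against ACs (10.3% of those tested), IFN-γ + ACs changed 2173 (21.4%) and the combination changed 3240 (31.9%). The combination differed from IFN-γ + ACs in 1481 genes (14.6%) and from E. coli + ACs in 1968 (19.4%). Called genes were sorted by these contrasts into 8 classes. The antagonised rise held 154 genes, in which a stimulus raised the gene and the combination was lower than that stimulus alone. The stimulus that raised the gene and exceeded the combination was IFN-γ only for 127 of the antagonised rises, E. coli only for 25, and each of the stimuli for 2. The saturating rise held 110 genes, which both stimuli raised alone and whose combined level was not called lower than either. Other genes below additive numbered 124, and 47 showed a synergistic fall, with the combination under ACs and under each stimulus. Above additivity, 57 genes showed a synergistic rise over ACs and over each stimulus, 86 a relieved fall, 65 a saturating fall and 113 none of these patterns. In a relieved fall, at least 1 stimulus lowered the gene and the combination was called higher than that stimulus. The combination need not return to the level of ACs, as in Egr1, with means of 541 in ACs and 92.0 with both. E. coli raised 24 of the called genes alone and lowered them in the presence of IFN-γ, and did the reverse to 14. IFN-γ raised 19 alone and lowered them in the presence of E. coli, and did the reverse to 11. Classes are descriptions and not separate tests. The ACs, E. coli and IFN-γ libraries enter both the single effects and the interaction with opposite signs, so that a low ACs value by chance makes a gene look raised by each stimulus and below additive at once.

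**Figure D2:**
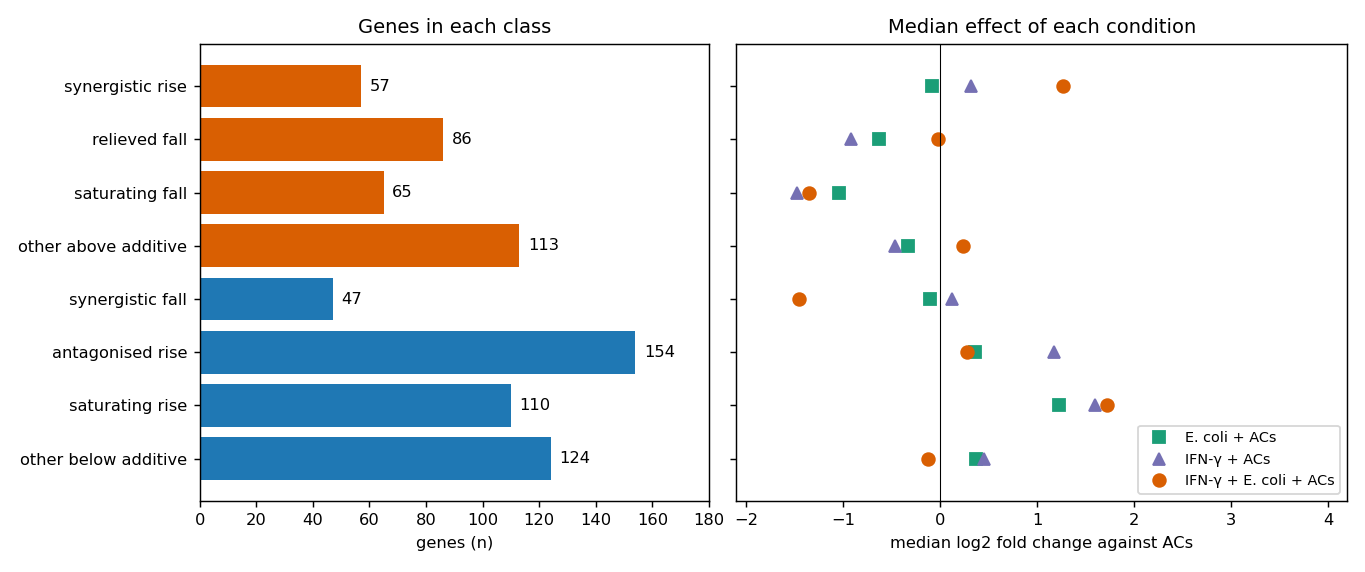
The left panel gives the number of genes in each class, in orange for genes above additive and in blue for those below. The right panel gives the median log2 fold change against ACs of E. coli + ACs (squares), IFN-γ + ACs (triangles) and the combination (circles); in the saturating rise these medians were 1.23, 1.60 and 1.72, and in the synergistic rise -0.08, 0.32 and 1.27.

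The genes farthest below additive included chemokines, enzymes and membrane proteins that both stimuli induced and that 1 of them alone brought to near the level of the combination. Cxcl10, a ligand of the chemokine receptor CXCR3, is ENSMUSG00000034855.13 at chr5:92346638-92348889 in GRCm38. Its normalized counts were 207, 133 and 134 in the ACs libraries, 2707, 2166 and 2222 with E. coli, 2447, 2649 and 3448 with IFN-γ and 3557, 3486 and 4906 with both. The ACs libraries lay far below all others, and the combined libraries lay above those with E. coli and, by a margin that was not called, above those with IFN-γ. An additive response would have given 42678 normalized counts, and the interaction was -3.44 ± 0.25 (SE; limma adjusted p = 1.03e-07). Cxcl11, a further CXCR3 ligand, had normalized counts of 5.69, 2.82 and 4.08 in the ACs libraries, 68.7, 76.8 and 60.7 with E. coli, 166, 205 and 267 with IFN-γ and 212, 169.8 and 221 with both. Its ACs values were close to what 3 reads are worth. IFN-γ and combined libraries of Cxcl11 overlapped, and the interaction was -3.84 ± 0.35 (SE; limma adjusted p = 2.74e-06). Cxcl9, the remaining CXCR3 ligand, was not called (interaction -1.39 ± 0.44, limma adjusted p = 0.0585), with group means of 14.9, 16.5, 2822 and 1251 in the order ACs, E. coli, IFN-γ and both.

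Nos2 encodes the inducible nitric oxide synthase. Its normalized counts were 73.2, 99.5 and 57.1 in the ACs libraries, 671, 565 and 680.0 with E. coli, 5408, 6298 and 4383 with IFN-γ and 4509, 5899 and 5898 with both. IFN-γ libraries and combined libraries overlapped, while E. coli alone reached a lower level, and the interaction was -3.05 ± 0.25 (SE; limma adjusted p = 5.76e-07). Slc7a2, a transporter that brings in arginine, had normalized counts of 636, 589 and 539 in the ACs libraries, 2791, 2034 and 2349.5 with E. coli, 3338, 3860.4 and 3585 with IFN-γ and 3307, 3253 and 4589 with both. Here too the IFN-γ and combined libraries overlapped, with an interaction of -1.98 ± 0.20 (SE; limma adjusted p = 5.18e-06). Acod1, which makes itaconate, reached 844, 1004 and 1172 normalized counts with IFN-γ and 1404, 1041 and 1518 with both, from 61.0, 60.1 and 51.4 in ACs and 378, 298 and 321 with E. coli. Its interaction was -2.12 ± 0.23 (SE; limma adjusted p = 1.3e-05) on the log2 scale but 39.0 ± 174 (SE) normalized counts on the linear scale, so that the linear increments added up within their error. In the list of arginine, nitric oxide, itaconate and tryptophan enzymes, 7 of 9 genes tested were below additive and none above (median -1.31). The share called was 77.8%, against 7.44% of all genes tested. The 7 included Arg1 and Ass1, described below with the genes that E. coli lowered. The tryptophan enzyme Ido1 was not called (interaction 0.08 ± 0.66).

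Ifitm1, an interferon-induced membrane protein, had normalized counts of 201, 272 and 179 in the ACs libraries, 3619, 4435 and 3709 with E. coli, 2635, 2427 and 2077 with IFN-γ and 4951, 5393 and 5786 with both. Each group lay apart from the others, and the combination was the highest although not called above E. coli. For Ifitm1 43085 normalized counts would have been additive and the interaction was -3.01 ± 0.20 (SE; limma adjusted p = 9.22e-08). Procr, the protein C receptor, was at 37.8, 331, 793 and 923 normalized counts in ACs, E. coli, IFN-γ and both (interaction -2.89 ± 0.29 SE, limma adjusted p = 5.78e-06). Syt7, a synaptotagmin of exocytosis, was at 7.24, 133, 85.9 and 152 in the same order (interaction -3.17 ± 0.44 SE, limma adjusted p = 0.000163). Il1rn, the antagonist of the IL-1 receptor, was raised by E. coli to 5989.8, 5195 and 5804 from 1592, 1396 and 1313 in ACs. With IFN-γ it was at 3693, 4124 and 4203 and with both at 5782, 4795 and 6299.7, which overlapped the E. coli libraries (interaction -1.50 ± 0.17 SE, limma adjusted p = 1.64e-05). Atf3, a stress-induced transcription factor, was the only immediate early factor below additive (interaction -1.71 ± 0.25 SE, limma adjusted p = 0.000351), with means of 1586 with IFN-γ and 1192 with both.

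Antiviral interferon-stimulated genes followed a like pattern in part. Of 31 tested, 9 were below additive and 1 above (32.3% called, against 7.44% of all genes tested), while the median of the list was 0.01. Isg15, a ubiquitin-like modifier, had normalized counts of 1195, 885 and 1076 in the ACs libraries, 2436, 1904 and 1997 with E. coli, 2118, 3148 and 3080.2 with IFN-γ and 1903, 2312 and 2372 with both. The combined libraries overlapped those with E. coli, and the interaction was -1.33 ± 0.22 (SE; limma adjusted p = 0.000899). Oasl1, Rsad2 and Ifit1 were also below additive, at -1.30, -1.16 and -0.85 on the log2 scale, as was Ifit2. Ifit3, of the family that binds viral RNA, was the lowest of the list. Its normalized counts were 2013, 1654 and 1436 in the ACs libraries, 2736, 2296 and 2291 with E. coli, 2522, 2773 and 2555 with IFN-γ and 1386, 1391 and 1400.4 with both, so that the combined libraries lay under every library of the other groups (interaction -1.44 ± 0.17 SE, limma adjusted p = 2.63e-05). Samd9l, the member above additive, had means of 2642, 1739.8, 2828 and 4297 in ACs, E. coli, IFN-γ and both (interaction 1.19 ± 0.24 SE, limma adjusted p = 0.00426). Mx1, Oas2, Zbp1 and Rnf213 were not called, with interactions of 0.57, 0.15, 0.00 and 0.41.

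Promoters of the called genes were searched for elements of both pathways. Windows from 250 bases before to 50 after the start were taken from RefSeq (GRCm38.p6, 1 window per gene), which held 246 of the 321 genes above additive and 342 of the 435 below. The letters searched, on both strands, were TTCNNNGAA for GAS, GAAANNGAAA for the interferon-stimulated response element (ISRE), TGANTCA for AP-1, and the kappa-B element by its consensus. Each was searched separately, so that overlapping matches count for both. An ISRE stood in 8.48% of the windows of genes below additive and in 6.10% of those above, against 3.49% of all 27025 windows and 3.54% of those of the genes tested. In the saturating rise it stood in 13 of 91 windows (14.3%), in the synergistic rise in 4 of 39 (10.3%) and in the antagonised rise in 9 of 113 (7.96%). Kappa-B stood in 12.6% of windows below additive and 9.76% above, against 8.18% of all windows and 10.1% of those of genes tested. In the synergistic rise it stood in 8 of 39 (20.5%), in the saturating rise in 13 of 91 (14.3%) and in the antagonised rise in 15 of 113 (13.3%). GAS stood in 7.02% below and 5.28% above, against 8.47% of all windows and 6.82% of those tested, and AP-1 in 8.48% and 7.72%, against 7.93% and 5.09%. These shares are descriptions without a test, and a match is not a binding site.

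Stretches around the matches of Cxcl10, Gbp5 and Isg15 are shown because these saturating genes carry interferon elements close to the start, with kappa-B elements in Cxcl10 and Gbp5. Each is written on the strand of the gene, with the matched letters in capitals. The Cxcl10 stretches lie at chr5:92349083-92349112 and chr5:92348974-92349003 on the minus strand, with the matches starting 213 and 104 bases before the start. Those of Gbp5 lie at chr3:142496871-142496900, chr3:142496759-142496788 and chr3:142496847-142496876 on the plus strand, 52, 165 and 77 bases before it. The Isg15 stretch lies at chr4:156200871-156200900 on the minus strand, 72 bases before it, and is 1 of 3 overlapping ISRE matches there. That of kappa-B in Cxcl10 is 1 of 3 as well, of which 2 overlap. A further GAS match of Gbp5 starts 245 bases before the start. Of 19 named saturating genes searched, 13 had a window and 7 held a match to any element. The matches in Il1rn, Procr and Oasl1 were to AP-1 or kappa-B only.
Cxcl10, ISRE: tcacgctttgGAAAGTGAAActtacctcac
Cxcl10, kappa-B: tcggtttacaGGGGACTTCCctcgggttgc
Gbp5, GAS: ctggccgttatTTCTCAGAAccaagcacag
Gbp5, ISRE: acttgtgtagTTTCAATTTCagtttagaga
Gbp5, kappa-B: ggagaggaaaGGAAATTCCCagggctggcc
Isg15, ISRE: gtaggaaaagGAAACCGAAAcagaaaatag

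Next, genes that E. coli raised and that IFN-γ held down in the combination were examined. Il10, an anti-inflammatory cytokine, had normalized counts of 48.0, 22.5 and 25.3 in the ACs libraries, 273, 209 and 343 with E. coli, 113, 71.1 and 75.9 with IFN-γ and 72.7, 64.7 and 99.3 with both. E. coli alone was the highest group and did not overlap with any other, while the IFN-γ and combined libraries overlapped. The combined effect against E. coli alone was -1.78 on the log2 scale (limma adjusted p = 0.000116), and the interaction was -3.25 ± 0.40 (SE; limma adjusted p = 3.73e-05). Il19, a cytokine of the IL-10 family, had normalized counts of 0.81, 0.94 and 4.89 in the ACs libraries, 223, 124 and 224 with E. coli, 6.60, 1.15 and 2.05 with IFN-γ and 37.1, 33.0 and 19.3 with both. Its ACs and IFN-γ values were near or under what 3 reads are worth, and only E. coli alone reached over 100 normalized counts. The interaction of Il19 was -3.06 ± 0.77 (SE; limma adjusted p = 0.0194), and the call was lost in edgeR and without ACs replicate 2, E. coli + ACs replicate 1 or E. coli + ACs replicate 3 (-2.92 to -2.81).

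Ch25h, the cholesterol 25-hydroxylase that makes an antiviral oxysterol, had normalized counts of 12.2, 13.1 and 13.1 in the ACs libraries, 129.8, 103 and 125 with E. coli, 60.7, 98.6 and 86.2 with IFN-γ and 51.3, 34.2 and 66.2 with both. Both stimuli raised it, and the combined libraries lay below all E. coli libraries and overlapped with IFN-γ (interaction -3.82 ± 0.38 SE, limma adjusted p = 5.18e-06). S100a8, a calprotectin subunit, was at 383, 254 and 354 with E. coli and 134, 114 and 189 with both, from 46.4, 56.3 and 39.1 in ACs (interaction -2.62 ± 0.30 SE, limma adjusted p = 2.32e-05). Slpi, a secreted protease inhibitor, was at 3192, 2529 and 2959 with E. coli and 1331, 1741 and 1657 with both (interaction -1.56 ± 0.18 SE, limma adjusted p = 2.32e-05). Lcn2, the siderophore-binding lipocalin, was at 17533, 13953 and 16610.3 with E. coli and 6218, 7431 and 7512 with both, which overlapped ACs alone at 7669, 8591 and 5926 (interaction -1.39 ± 0.27 SE, limma adjusted p = 0.00314). In the list of acute phase and antimicrobial proteins, 6 of 8 genes tested were below additive and none above, with a median of -1.48. The share called was 75.0%, against 7.44% of all genes tested. S100a9 was 1 of the 6, and its call was lost without E. coli + ACs replicate 1 (-3.14).

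Other E. coli-induced genes also fell back in the combination. U90926, a noncoding transcript, was at 14.4, 220.0, 20.6 and 32.8 normalized counts in ACs, E. coli, IFN-γ and both (interaction -3.06 ± 0.52 SE, limma adjusted p = 0.00121). Gpr84, a receptor for medium-chain fatty acids, had normalized counts of 14.6, 10.3 and 11.4 in the ACs libraries, 89.6, 64.6 and 58.1 with E. coli, 21.1, 20.6 and 12.3 with IFN-γ and 12.8, 8.55 and 15.2 with both (interaction -2.96 ± 0.51 SE, limma adjusted p = 0.00131). Ccl4, a chemokine that attracts leukocytes, was at 1103, 845 and 862 with E. coli and 302, 483 and 527 with both, without overlap (interaction -1.79 ± 0.30 SE, limma adjusted p = 0.00122). Cd14, the lipopolysaccharide co-receptor, had normalized counts of 6301, 6195 and 5081 in the ACs libraries, 11686, 9824 and 11666 with E. coli, 6664, 8023 and 6758 with IFN-γ and 6534, 7346 and 8037 with both. E. coli alone was the highest group of Cd14, the IFN-γ and combined libraries overlapped, and the interaction was -0.89 ± 0.17 (SE; limma adjusted p = 0.00314). Socs2, a suppressor of cytokine signalling, was at 2662 with E. coli and 1323 with both (interaction -0.81 ± 0.17 SE, limma adjusted p = 0.0076).

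Other transcripts that E. coli induced were not called. In a list of 6 further CXC chemokines, Cxcl1 was at 71.2, 458, 68.0 and 422 normalized counts in ACs, E. coli, IFN-γ and both, with an interaction of -0.06 ± 0.22 (95% interval -0.52 to 0.40). Cxcl2 had an interaction of 0.29 ± 0.17 (95% interval -0.07 to 0.64) and Cxcl3 of -0.19 ± 0.30. Pf4, platelet factor 4, was the called member (16.7% of the list, against 7.44% of all genes tested), below additive, and its call was lost without any 1 of 6 libraries. Nfkbiz and Tnfaip3, NF-kB targets that restrain or redirect it, had interactions of 0.64 and 0.33, and of 14 NF-kB subunits and inhibitors only Nfkbib was called (below additive, lost without any 1 of 7 libraries). That share of 7.14% was close to the 7.44% of all genes tested. Tnf, Il6, Il1b and Csf3 were likewise not called, at -0.49, 0.86, -0.24 and -0.45, with standard errors between 0.38 and 0.60. A miss of the threshold does not show that these genes were additive.

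In the opposite direction, E. coli lowered genes that IFN-γ had raised. MHC class II genes, which present peptides to CD4+ T cells, made up a list in which 5 of 9 genes tested were below additive and none above, with a median of -1.40. The share called was 55.6%, against 7.44% of all genes tested. H2-Aa had normalized counts of 322, 295 and 307 in the ACs libraries, 339, 273 and 339 with E. coli, 1459, 1527 and 1172 with IFN-γ and 515, 429 and 689.9 with both. E. coli libraries overlapped with ACs, IFN-γ was far above, and the combined libraries lay between them without overlap (interaction -1.40 ± 0.23 SE, limma adjusted p = 0.000828). H2-Ab1 was at 2504, 2903 and 2409 with IFN-γ and 1419.8, 1416 and 1232 with both, from 468, 449.5 and 432 in ACs (interaction -1.09 ± 0.18 SE, limma adjusted p = 0.000886). H2-Eb1 had an interaction of -1.59 ± 0.31 (SE; limma adjusted p = 0.00344). H2-DMa and H2-DMb1, which load peptides, were called as well, although the H2-DMa call was lost without IFN-γ + ACs replicate 2 (-1.56) and the H2-DMb1 call without any 1 of 6 libraries, all of them ACs or single-stimulus libraries (-1.51 to -1.32). Ciita, the master regulator of the class, was not called at means of 1.09, 1.37, 30.8 and 8.54 normalized counts in ACs, E. coli, IFN-γ and both, nor was Cd74 (interaction -0.82 ± 0.27, limma adjusted p = 0.067).

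MHC class I genes, which present peptides to CD8+ T cells, made up a further list. Of 20 class I and immunoproteasome genes tested, 3 were above additive and none below, with a median of 0.06. The difference between the class I and class II lists was not tested. B2m, the shared light chain, was at 29897, 31051, 55767 and 55545 normalized counts in ACs, E. coli, IFN-γ and both (interaction -0.07 ± 0.18, 95% interval -0.46 to 0.31). H2-K1 and H2-D1 had interactions of 0.06 and -0.26. Nlrc5, the transactivator of class I genes, and Tap2, a subunit of the peptide transporter, kept their calls in every alternative and are described with the synergistic rises. Erap1, a peptidase that trims peptides, was the remaining call (interaction 0.74 ± 0.22 SE, limma adjusted p = 0.043), and it was lost without any 1 of 10 libraries.

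Arg1, which consumes arginine, had normalized counts of 6993, 7065 and 6089.7 in the ACs libraries, 5251, 3793 and 4014 with E. coli, 24549, 30994 and 28961 with IFN-γ and 8643, 8709.6 and 12205 with both. IFN-γ alone was the highest group, and the combined libraries lay far under IFN-γ and above ACs, from which the difference was not called (interaction -0.89 ± 0.21 SE, limma adjusted p = 0.0119). Ass1, which resynthesises arginine, was at 141, 225 and 154 with IFN-γ and 42.8, 84.3 and 31.7 with both (interaction -2.46 ± 0.48 SE, limma adjusted p = 0.00341). Iigp1, an immunity-related GTPase of vacuole defence, was at 3921, 4922 and 4714 with IFN-γ and 1718, 2202 and 3291 with both (interaction -1.29 ± 0.26 SE, limma adjusted p = 0.00501), whereas its relatives Igtp and Irgm2 had interactions of 0.12 and 0.40 and were not called. Cd40, a costimulatory receptor, had normalized counts of 284, 240.2 and 174 in the ACs libraries, 400.2, 296 and 361 with E. coli, 604, 828 and 614 with IFN-γ and 321, 358 and 413 with both. Combined and E. coli libraries of Cd40 overlapped, and the interaction was -1.51 ± 0.26 (SE; limma adjusted p = 0.00115). Ccl2, a monocyte chemokine, was at 5445, 6582 and 8264 with IFN-γ and 2976, 2969.6 and 4094 with both (interaction -1.30 ± 0.24 SE, limma adjusted p = 0.00233). Of 12 CC chemokines tested, 5 were below additive and none above (41.7% called, against 7.44% of all genes tested). Gdf15, a stress-induced cytokine, had normalized counts of 4.88, 5.63 and 3.26 in the ACs libraries, 25.1, 18.8 and 30.8 with E. coli, 54.1, 82.5 and 59.5 with IFN-γ and 28.5, 35.4 and 23.4 with both (interaction -3.34 ± 0.49 SE, limma adjusted p = 0.000302).

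Macrophage markers showed the pattern of these genes only in part. The summed level of 9 macrophage markers was 11859 to 15289 normalized counts in ACs, 4723 to 6057 with E. coli, 16355 to 24316 with IFN-γ and 4861 to 5404 with both. None of the 9 was at 0 in any group, and C1qc contributed the most of them in every group. C1qa, C1qb, C1qc, Mertk, Timd4 and Gata6 had higher means with IFN-γ than in ACs. Vsig4 fell from 544 in ACs to 338 with IFN-γ, and Csf1r (1170 and 1053) and Icam2 (94.6 and 99.8) changed little. E. coli alone lowered the macrophage sum. The sum of H2-Aa, H2-Ab1, H2-Eb1 and Cd74 with E. coli alone (1098 to 1412) overlapped that in ACs (1181 to 1309). Of 14 genes in the longer macrophage list, 6 were below additive and none above (42.9% called, against 7.44% of all genes tested), with a median of -0.82. The summed level of 8 eosinophil markers was 7598 to 7997 in ACs, 8648 to 9832 with E. coli, 4856 to 5678 with IFN-γ and 6942 to 8312 with both. In bulk RNA, fewer cells of a type and less RNA per cell cannot be told apart. The part of macrophage RNA in the results for MHC class II genes, Arg1, Apoe, Marco, Ccl2 and the other genes that IFN-γ raised and E. coli lowered was not tested. Thymocyte markers, the signature of the ACs themselves, summed to 83 to 133 in ACs, 120 to 177 with E. coli, 53 to 104 with IFN-γ and 34 to 101 with both, and Rag1, Rag2 and Dntt were at or near 0. Neutrophil markers summed to 60 to 95, 283 to 374, 60 to 140 and 200 to 237 in the same order, with Cxcr2 the highest of them in every group and Mpo, Elane and Ctsg at or near 0. B cell markers summed to 13 to 90.

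**Figure D3:**
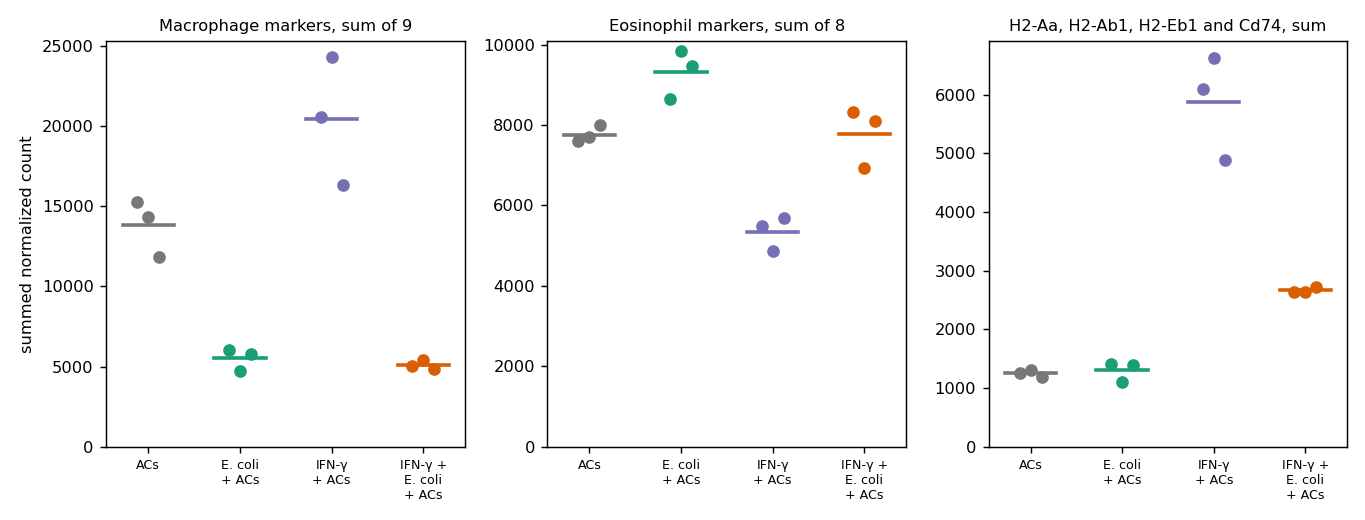
Summed normalized counts per library (points) and group means (bars) of 9 macrophage markers, 8 eosinophil markers, and the 4 MHC class II genes H2-Aa, H2-Ab1, H2-Eb1 and Cd74. The macrophage sum reaches 16355 to 24316 with IFN-γ and 4861 to 5404 with both, and the MHC class II sum 4892 to 6629 with IFN-γ and 2633 to 2717 with both, above the 1181 to 1309 of ACs.

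Synergistic rises, in which the combination exceeded ACs and both single stimuli, involved 57 genes. Gbp8 is ENSMUSG00000034438.16 at chr5:105014150-105139540 in GRCm38, and belongs to the GTPases that attack pathogen vacuoles. Its normalized counts were 56.1, 51.6 and 71.0 in the ACs libraries, 21.8, 28.6 and 20.2 with E. coli, 319, 356 and 343 with IFN-γ and 617, 748 and 944 with both. E. coli alone was the lowest group and the combination the highest, and no group overlapped another. E. coli thus lowered Gbp8 in the absence of IFN-γ (-1.31 on the log2 scale, limma adjusted p = 9.84e-05) and raised it in its presence (1.16, limma adjusted p = 0.000307), an interaction of 2.46 ± 0.27 (SE; limma adjusted p = 1.64e-05).

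Gsn, which encodes the actin-severing protein gelsolin, did not respond to a single stimulus by the test. Its normalized counts were 889.6, 986 and 921 in the ACs libraries, 781, 797 and 870.0 with E. coli, 776, 632 and 835 with IFN-γ and 2530.2, 2317 and 1850.2 with both. All combined libraries lay above all others, and the interaction was 1.77 ± 0.19 (SE; limma adjusted p = 9.58e-06). Dusp6, a phosphatase that inactivates ERK, showed the same behaviour at 581, 703 and 639 in the ACs libraries, 719, 772 and 786 with E. coli, 641, 528 and 817 with IFN-γ and 2135, 1918 and 2078 with both, with an interaction of 1.40 ± 0.19 (SE; limma adjusted p = 0.000162). Slc2a3, the glucose transporter GLUT3, was at 574, 517 and 308 with both against 211, 274 and 216 in ACs (interaction 1.93 ± 0.37 SE, limma adjusted p = 0.00303). Zfp36l2, a protein that binds AU-rich mRNA, was at 1294, 1284, 1105 and 2024 in ACs, E. coli, IFN-γ and both (interaction 0.87 ± 0.18 SE, limma adjusted p = 0.00433).

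Nlrc5 had normalized counts of 179.7, 205 and 190.0 in the ACs libraries, 193, 197 and 183 with E. coli, 819, 544 and 671 with IFN-γ and 1289, 1173 and 1203 with both. ACs and E. coli libraries of Nlrc5 overlapped, IFN-γ raised it, and the combined libraries lay above all others (interaction 0.87 ± 0.20 SE, limma adjusted p = 0.0111). Tap2 had normalized counts of 368, 391 and 454 in the ACs libraries, 365, 317 and 355 with E. coli, 695, 636 and 640.2 with IFN-γ and 1276, 1252 and 998 with both. Its combined libraries also lay above all others (interaction 1.05 ± 0.18 SE, limma adjusted p = 0.00141).

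Enzymes of glycolysis and genes of the low-oxygen response were mostly not called. Of 24 tested, 5 were above additive and 1 below (25.0% called, against 7.44% of all genes tested), and the median was 0.00. The 5 comprised Pfkp and Hk1, which carry out early regulated steps of glycolysis, and Hk2, Ero1l and Bnip3. Pfkp had normalized counts of 329, 292 and 272 in the ACs libraries, 369, 412 and 345 with E. coli, 725, 566 and 573 with IFN-γ and 1615, 1307 and 1338 with both (interaction 0.86 ± 0.19 SE, limma adjusted p = 0.00983). Hk1 was at 611, 539, 1088 and 1725 in the same order (interaction 0.85 ± 0.18 SE, limma adjusted p = 0.00733). Ero1l, an oxidase of protein folding, rose from 800.3 ± 139.7 (SD, n = 3) in ACs to 11273 ± 1009.8 (SD, n = 3) with both. That rise is the whole combined effect and not the departure from additivity, which was 0.67 ± 0.19 (SE; limma adjusted p = 0.0412). Later enzymes were not called, with interactions from -0.64 ± 0.23 in Aldoa through -0.34 ± 0.24 in Tpi1, -0.33 ± 0.19 in Pkm, -0.31 ± 0.15 in Pgk1, -0.30 ± 0.21 in Eno1, -0.15 ± 0.23 in Gapdh and -0.01 ± 0.15 in Ldha to 0.06 ± 0.14 in Pgam1. The calls of Hk2, Ero1l and Bnip3 were lost without any 1 of 7, 7 and 6 libraries, and leaving out single libraries gave 2 to 6 genes of the list above additive.

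**Figure D4:**
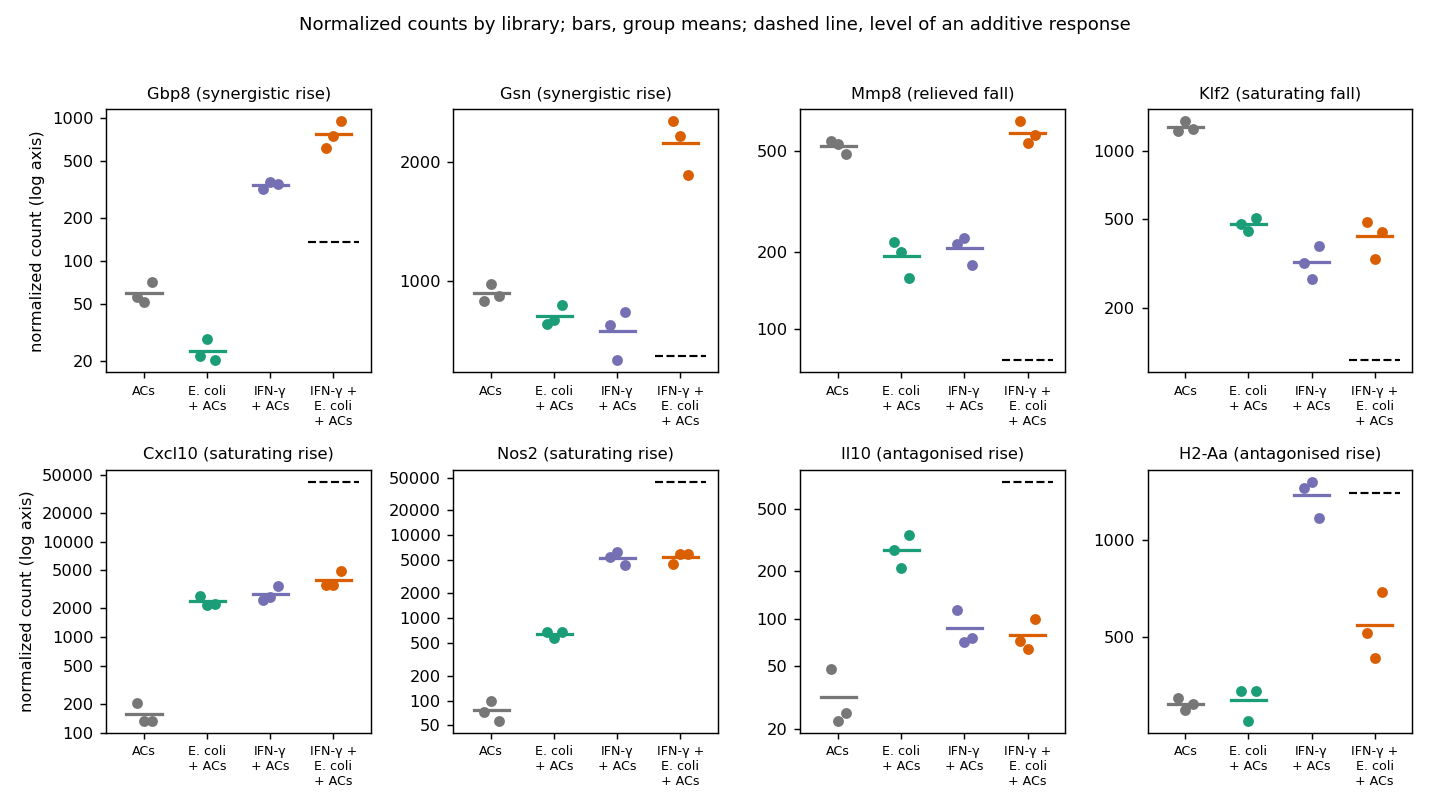
Normalized counts of 8 genes on log axes, with 1 point per library, bars for the group means and a dashed line for the level of an additive response in the combined group. Gbp8, Gsn, Mmp8 and Klf2 lie above the dashed line, and Cxcl10, Nos2, Il10 and H2-Aa below it; in Cxcl10 the combined libraries sit between 3486 and 4906 against 42678 for an additive response.

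Members of the GBP family departed from additivity in both directions. Of 9 tested, Gbp8, Gbp4 and Gbp7 were above and Gbp5, Gbp6 and Gbp3 below, so that the list's median was -0.01. The share called was 66.7%, against 7.44% of all genes tested. Gbp2 was at 1448, 1868, 14984 and 19199 in ACs, E. coli, IFN-γ and both (interaction -0.01 ± 0.15, 95% interval -0.31 to 0.30). Gbp5 had normalized counts of 37.4, 12.2 and 31.0 in the ACs libraries, 101, 109.5 and 62.5 with E. coli, 417, 401 and 419 with IFN-γ and 294, 370.1 and 392 with both, with the IFN-γ libraries above all combined ones by a margin that was not called (interaction -2.06 ± 0.42 SE, limma adjusted p = 0.00489). E. coli alone raised Gbp5 by 1.82 ± 0.30 (SE), Gbp3 by 0.96 ± 0.16 and Gbp6 by 1.17 ± 0.35 on the log2 scale, whereas Gbp4 and Gbp7 had E. coli effects of -0.29 and -0.41 that were not called. The E. coli libraries enter the interaction with a minus sign, so these effects are not a separate result. Gbp3 had an interaction of -1.13 ± 0.23 (SE; limma adjusted p = 0.00425), Gbp7 of 0.87 ± 0.19 (SE; limma adjusted p = 0.00866) and Gbp4 of 0.88 ± 0.25 (SE; limma adjusted p = 0.0354). The Gbp6 call was lost without any 1 of 9 libraries, that of Gbp4 without any 1 of 7, and GBP genes are close relatives whose reads could in part be assigned to one another.

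Of the interferon regulatory factors, no member of 9 tested was called in limma, against 7.44% of all genes tested. Of the 9, 5 had an unadjusted limma p under 0.05, as did 2279 of all 10166 genes tested. With edgeR and DESeq2, 1 factor each was called above additive. Irf1, which IFN-γ induces directly, was at 783, 690.0, 4414 and 5578 normalized counts in the same order of groups (interaction 0.51 ± 0.16, limma adjusted p = 0.0646). Socs1, the feedback inhibitor of JAK kinases, had an interaction of -0.24 ± 0.32 (95% interval -0.90 to 0.43), with combined libraries as far apart as 7020.5, 12787 and 4458. Cd274, which encodes PD-L1, had normalized counts of 185, 195 and 161 in the ACs libraries, 414, 460.3 and 439 with E. coli, 1394, 1740.0 and 1709 with IFN-γ and 2267, 2745 and 2937 with both, and was not called (-0.56 ± 0.18, limma adjusted p = 0.0684). Jak2 was above additive at 0.69 ± 0.18 (SE; limma adjusted p = 0.0231), with E. coli alone at 1173 against 1992 in ACs and 1788 with both. Its call was lost without ACs replicates 2 or 3, E. coli + ACs replicates 2 or 3, IFN-γ + ACs replicate 2 or combined replicate 1.

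Relieved falls (86 genes) and saturating falls (65 genes) made up a further share of the genes above additive. The stimulus that lowered the gene and lay below the combination was IFN-γ only for 52 of the relieved falls, E. coli only for 28, and each of the stimuli for 6. Mmp8, the collagenase of neutrophil granules, is ENSMUSG00000005800.3 at chr9:7558456-7568485 in GRCm38. Its normalized counts were 548, 534 and 485 in the ACs libraries, 220.2, 200.3 and 159 with E. coli, 216, 228 and 179 with IFN-γ and 653, 535 and 578 with both. Each stimulus lowered Mmp8, and the combined libraries overlapped with ACs alone (interaction 2.94 ± 0.21 SE, limma adjusted p = 1.03e-07). Fanca, of the Fanconi anaemia DNA repair complex, had normalized counts of 159, 157 and 142 in the ACs libraries, 36.8, 33.5 and 34.3 with E. coli, 63.3, 60.8 and 41.0 with IFN-γ and 92.7, 88.0 and 70.4 with both, with the combination between ACs and both single stimuli, although not called above IFN-γ (interaction 2.71 ± 0.30 SE, limma adjusted p = 1.81e-05). Lair1, an inhibitory collagen receptor, had normalized counts of 77.2, 51.6 and 33.4 in the ACs libraries, 4.09 to 21.99 with E. coli, 161, 147 and 203 with IFN-γ and 331, 304 and 326 with both. E. coli alone lowered Lair1 and IFN-γ raised it, and the combination was the highest although not called above IFN-γ (interaction 2.83 ± 0.59 SE, limma adjusted p = 0.00583). Il18rap, a subunit of the IL-18 receptor, had normalized counts of 200.1, 194 and 205 in the ACs libraries, 306, 347 and 274 with E. coli, 109, 124 and 86.2 with IFN-γ and 409, 419 and 419 with both. IFN-γ alone was its lowest group and the combination its highest, although not called above E. coli (interaction 1.35 ± 0.22 SE, limma adjusted p = 0.000762). Cish, a feedback inhibitor of cytokine receptors, was at 243, 312, 162 and 393 in ACs, E. coli, IFN-γ and both (interaction 0.92 ± 0.19 SE, limma adjusted p = 0.00566).

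Immediate early factors, which are transcribed within minutes of a stimulus, were mostly above additive. Of 16 tested, 9 were above additive and 1 below, with a median of 0.70 against -0.03 over all genes. The share called was 62.5%, against 7.44% of all genes tested. Egr1, a zinc finger factor, had normalized counts of 494, 494 and 637 in the ACs libraries, 107, 172 and 104 with E. coli, 69.9, 29.8 and 41.0 with IFN-γ and 96.9, 97.7 and 81.4 with both. All stimulated groups lay far below ACs, with IFN-γ alone the lowest (interaction 3.14 ± 0.36 SE, limma adjusted p = 2.32e-05). Klf2, a factor of leukocyte quiescence, had normalized counts of 1228, 1359.8 and 1258 in the ACs libraries, 471, 441 and 504 with E. coli, 315, 268 and 378 with IFN-γ and 485, 329.8 and 436 with both. Both stimuli lowered Klf2 and the combination overlapped with each of them (interaction 1.81 ± 0.21 SE, limma adjusted p = 2.53e-05). Junb was at 1687, 1803 and 1851 in ACs and 998, 1346 and 738 with both (interaction 1.40 ± 0.23 SE, limma adjusted p = 0.000908), and Fos at 2201, 2060.0 and 2165 and 1065, 872 and 1079 (interaction 0.80 ± 0.19 SE, limma adjusted p = 0.0154). Ier2, Klf4, Klf6 and Fosl2 were above additive at 1.06, 1.09, 0.61 and 1.09. The Klf4 and Klf6 calls were lost without any 1 of 4 and 6 libraries. Egr2 was above additive at 2.86 ± 0.76 (SE; limma adjusted p = 0.0261), and its call was lost without ACs replicate 2, ACs replicate 3, E. coli + ACs replicate 1 or E. coli + ACs replicate 3 (2.54 to 2.80). Jun, Jund and Nr4a1 were not called.

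Saturating falls reached the limit of detection in several genes. Abcg3, a transporter of the ABC family, had normalized counts of 155, 145 and 153 in the ACs libraries, 11.7, 11.4 and 7.92 with E. coli, 1.32, 16.1 and 10.3 with IFN-γ and 5.70, 15.9 and 4.14 with both, and all stimulated groups overlapped near the level of a few reads. Its interaction of 3.89 ± 0.83 (SE; limma adjusted p = 0.00706) was measured against an additive response that would lie below what 1 read is worth. Cbx8, a Polycomb protein, had normalized counts of 342, 317 and 359 in the ACs libraries, 72.0, 45.0 and 62.5 with E. coli, 21.1, 11.5 and 14.4 with IFN-γ and 28.5, 18.3 and 6.90 with both (interaction 2.54 ± 0.52 SE, limma adjusted p = 0.00519). Gm31520, an uncharacterised transcript, had means of 64.8, 10.7, 12.7 and 13.7 in ACs, E. coli, IFN-γ and both (interaction 2.76 ± 0.63 SE, limma adjusted p = 0.0111). Further large interactions above additive were those of Mapt at 3.41, 2610507I01Rik at 2.90, Gm15675 at 2.48 and Btnl9 at 2.51. The Mapt and Btnl9 calls were each lost without any 1 of 6 libraries (3.27 to 3.53 and 2.13 to 2.53), and that of 2610507I01Rik without ACs replicate 1 or 3 (2.63 and 2.65). Il5ra, the receptor chain through which IL-5 sustains eosinophils, had normalized counts of 388, 443 and 455 in the ACs libraries, 264, 338 and 230.5 with E. coli, 248, 248 and 291 with IFN-γ and 299, 303 and 381 with both. Both stimuli lowered Il5ra, the combined libraries overlapped with E. coli, and the interaction was 0.96 ± 0.22 (SE; limma adjusted p = 0.0119). It was the only one of 16 eosinophil granule and lineage genes called. That share of 6.25% was close to the 7.44% of all genes tested. Ccr3, Siglecf and Ear6 had interactions of 0.22, 0.53 and -0.14.

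The 47 synergistic falls included macrophage genes and secreted resistin-like proteins. Gata6, the factor of resident peritoneal macrophages, had normalized counts of 187, 118 and 123 in the ACs libraries, 101, 81.8 and 87.1 with E. coli, 157, 199 and 172 with IFN-γ and 42.8, 24.4 and 41.4 with both. The combined libraries were the lowest without overlap, and the interaction was -1.65 ± 0.33 (SE; limma adjusted p = 0.00433). C1qa, of complement, had normalized counts of 616, 709 and 431 in the ACs libraries, 239, 199 and 252 with E. coli, 745, 989 and 579 with IFN-γ and 98.4, 149 and 70.4 with both (interaction -1.56 ± 0.34 SE, limma adjusted p = 0.00777), and Fcgr1, the high-affinity Fc receptor, of 690.4, 548 and 590.5 in the ACs libraries, 553, 402 and 402 with E. coli, 630.5, 682 and 612 with IFN-γ and 188, 206 and 178 with both (interaction -1.30 ± 0.20 SE, limma adjusted p = 0.000558). Retnlg, a resistin-like protein of myeloid cells, had normalized counts of 1506, 1794 and 1694 in the ACs libraries, 1501, 1915 and 1634 with E. coli, 2039, 1813 and 2239 with IFN-γ and 1043, 746 and 978 with both (interaction -1.16 ± 0.19 SE, limma adjusted p = 0.00098). Spsb1, an adaptor that targets inducible nitric oxide synthase for degradation, had normalized counts of 223, 134 and 127 in the ACs libraries, 190.0, 183 and 246 with E. coli, 311, 322 and 232 with IFN-γ and 81.2, 64.7 and 156 with both. IFN-γ alone raised Spsb1, the combination lowered it, and the interaction was -1.99 ± 0.38 (SE; limma adjusted p = 0.00308). Helq, a DNA helicase, was at 38.8, 46.9, 51.5 and 9.58 in ACs, E. coli, IFN-γ and both (interaction -2.58 ± 0.58 SE, limma adjusted p = 0.0106). The macrophage marker sum was as low with E. coli alone as with both (4723 to 6057 and 4861 to 5404). Gata6, C1qa and Fcgr1 were called lower with both than with E. coli. In that sum, Mertk, Timd4, C1qb and Csf1r had means of 193, 57.0, 1007 and 843 with E. coli. With both these means were higher, at 387, 87.8, 1136 and 888, while those of C1qc, Icam2 and Vsig4 were lower. The E. coli and combined libraries overlapped for Timd4, C1qb, Csf1r, C1qc and Vsig4, and lay apart only for Mertk and Icam2. The part of macrophage RNA in the synergistic falls was not tested. Without combined replicate 2 this class held 136 genes, and without combined replicate 3 it held 76, whereas without E. coli + ACs replicate 1 it held 21.

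Near-additive genes were few at this depth. They were required to be called in the same direction with each stimulus and to have a 95% interval of the interaction within 1.5-fold, which 20 genes met, 18 of them raised and 2 lowered, out of 546 that were eligible. Mif, a cytokine and tautomerase, had normalized counts of 229, 267 and 199 in the ACs libraries, 469.6, 423 and 457 with E. coli, 1671, 1644 and 1541 with IFN-γ and 3005, 3442 and 2421 with both, and 3154 would have been additive (interaction -0.11 ± 0.19, 95% interval -0.51 to 0.29). P4ha1, a prolyl hydroxylase of collagen, had an interaction of -0.09 ± 0.21 (95% interval -0.54 to 0.36), and Fyb, an adaptor of leukocyte adhesion, of 0.05 ± 0.15 (95% interval -0.27 to 0.36). Abr, Parp10, Tmem189, Ap3s1 and G6pdx were the other raised genes named, at -0.14, -0.07, -0.18, 0.07 and -0.04. Tgfbi, an extracellular matrix protein, had normalized counts of 2126, 1844 and 2180.0 in the ACs libraries, 761, 805 and 882 with E. coli, 685, 505 and 482 with IFN-γ and 232, 275 and 204 with both, so that each stimulus lowered it and the combination lowered it further by close to the product (interaction 0.10 ± 0.21, 95% interval -0.33 to 0.54). The mitochondrial ribosomal RNA mt-Rnr1 had an interaction of 0.11 ± 0.19.

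In the remaining lists, the share called was 40.0% in the IL-1 family, 33.3% in Type 2-associated genes and 26.7% in cholesterol genes, against 7.44% of all genes tested, and 6.25% in Toll-like receptors and adaptors. Among 12 Type 2-associated genes, Alox15, a lipoxygenase abundant in eosinophils, was above additive at 9408, 8930.2, 5456 and 8106 normalized counts in ACs, E. coli, IFN-γ and both (interaction 0.64 ± 0.14 SE, limma adjusted p = 0.00846, lost without combined replicate 1), and Arg1, Retnla and Chil3 were below. The Retnla and Chil3 calls were lost without any 1 of 6 and 2 libraries. Among 10 genes of the IL-1 family, Il18rap and Il1rl1 were above and Il1rn and Il18 below, and the Il1rl1 and Il18 calls were lost without any 1 of 5 and 7 libraries. Of 15 genes of cholesterol synthesis and efflux, Ch25h, Nr1h3 and Apoe were below additive, with the Nr1h3 call lost without any 1 of 6 libraries. Apoe was at 8057, 9796 and 7162 with IFN-γ against 3481, 3898 and 3398 with both (interaction -0.88 ± 0.19 SE, limma adjusted p = 0.00724). Mt2, a metallothionein, was below additive at -1.35 ± 0.25 (SE; limma adjusted p = 0.00215), and the other 5 tested of its list were not called (16.7% called, against 7.44% of all genes tested). Of 16 Toll-like receptors and adaptors, Cd14 was the only call. Trbc2, a T cell receptor constant region, was the only one of 5 thymocyte markers tested that was called, at 240.3 with E. coli and 79.5 with both. Its call was lost without E. coli + ACs replicate 1.

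**Figure D5:**
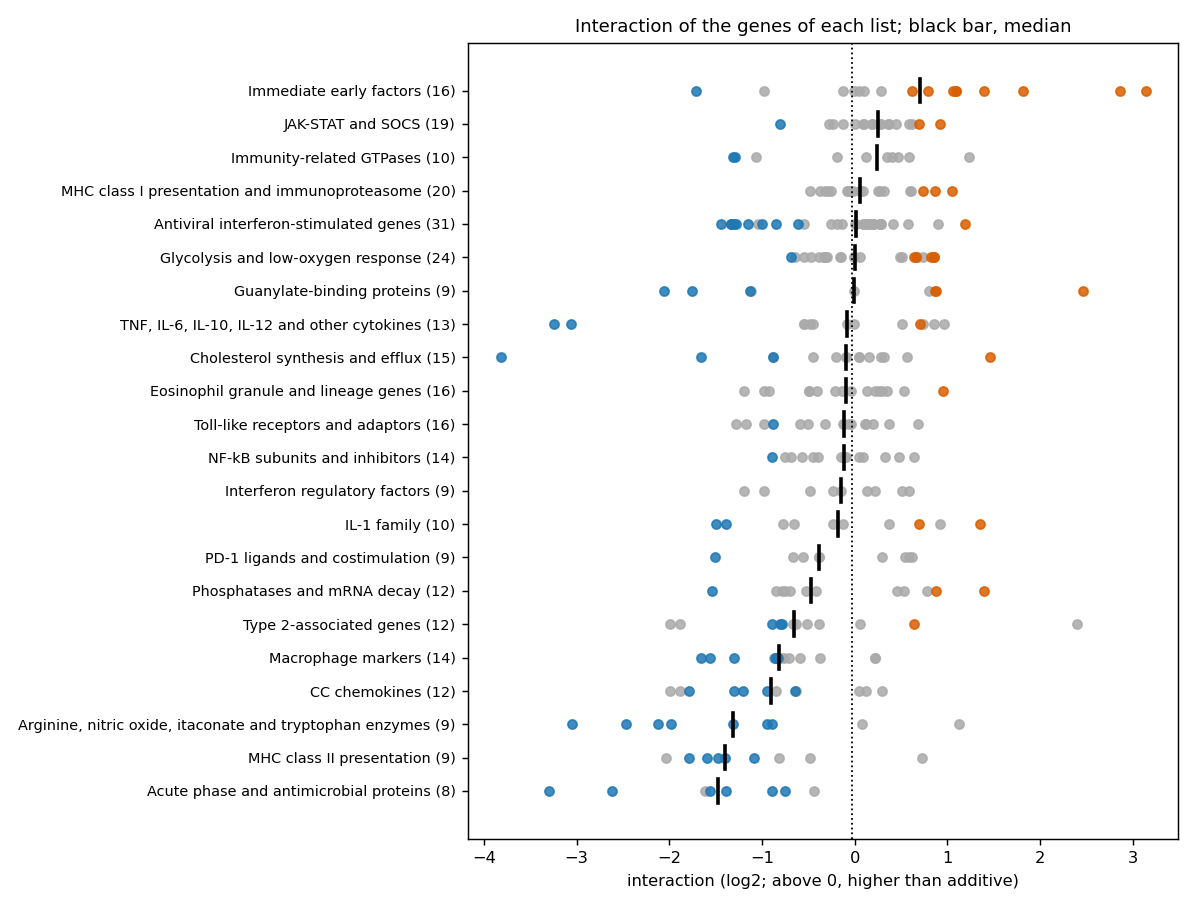
Interaction in log2 units of each gene of the 22 lists with at least 8 genes tested, orange where called above additive, blue where called below and grey where not called. Black bars are list medians and the dotted line is the median of all genes tested (-0.03); medians run from -1.48 in acute phase and antimicrobial proteins to 0.70 in immediate early factors.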

How the data were processed

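Mouse peritoneal eosinophils were profiled by CEL-Seq2, which reads the 3' end of polyadenylated RNA. The deposited table holds gene counts that the authors normalized with DESeq2 size factors (unit signal) for 18 libraries on GRCm38, of which 12 were used. The submitters' processing notes name FastQC 0.11.5, cutadapt 1.10, TopHat2 2.1.0, Bowtie2 2.2.6, HTSeq 0.6.1 and DESeq2 1.26.0, while the study's methods describe 2 pipelines, and which gave this table, and whether molecular identifiers were counted, was not given in the sources used here. Whole reads could be recovered from every value (100% within 0.005 of a whole read). Symbols were matched for 54409 of 54446 identifiers.

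Genes with a mean of at least 10 over the 12 libraries were fitted as log2(value + 1) with limma 3.58.1 (trended empirical Bayes, 4 group means, no covariate) in R 4.3.3, so that fold changes of low genes are understated. A gene was called at 1.5-fold or more (0.585 on the log2 scale) with a Benjamini-Hochberg adjusted p under 0.05. Alternatives were edgeR 4.0.16 and DESeq2 1.42.0 on recovered reads, other pseudocounts, filters, scaling, library weights, a replicate block, and leaving out libraries. On simulated data, 82.6% of 195 interactions of 4-fold were recovered with 10 false calls among 10016 genes. The simulated counts were drawn independently for each library, and all other genes were set to be additive. A library that stands apart, such as combined replicate 2, was not simulated, so errors from such a library are not measured. The genes named were, under a group mean of at least 50 for the first 3 sets, the 12 largest called interactions in each direction, 4 per class, 5 near-additive genes from each end, and up to 4 called genes per list; 31 further called genes, most of them list members, were named after their values were seen. The rule, the classes and the 28 lists (416 genes) were chosen with earlier results of these data known. One called gene of the cholesterol list is not reported here.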

Additional observations from a re-analysis of the deposited data

Results flagged for a closer look

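The effect of a stimulus differed with the presence of the other stimulus, by the interaction test, in 321 genes above and 435 genes below additive. Among the genes chosen by the naming rule, the effect of E. coli changed direction between the absence and the presence of IFN-γ, with a call in each, for Egr1 (interaction 3.14), Mmp8 (2.94), Gm15675 (2.48) and Gbp8 (2.46), which E. coli lowered alone and raised with IFN-γ, and for Gdf15 (-3.34) and Cd40 (-1.51), which it raised alone and lowered with IFN-γ. The effect of IFN-γ changed direction in the same way for Mmp8 (2.94), Fanca (2.71) and Gm15675 (2.48), which IFN-γ lowered alone and raised with E. coli. The reverse held for Ch25h (-3.82), Il10 (-3.25), S100a8 (-2.62), Spsb1 (-1.99), Ccl4 (-1.79), Slpi (-1.56) and Ifit3 (-1.44). Of the genes named beyond that rule, E. coli raised Hbb-bt (-2.50), Hba-a2 (-2.36), Hba-a1 (-2.35), Hbb-bs (-2.13), Slc48a1 (-1.72), Blvrb (-1.57) and Hmox1 (-1.48) alone and lowered them with IFN-γ, and did the reverse to Samd9l (1.19). IFN-γ also raised Hbb-bt alone and lowered it with E. coli. Both single effects of Mmp8, Gm15675 and Hbb-bt were reversed in the combination. With 3 libraries per group, single libraries far from their group were not tested.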

How the results depend on the processing

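In limma the counts of genes above and below additive stayed within 1.5 times of 321 and 435 with a pseudocount of 0.5 or 5, a mean of at least 50, no filter, a common upper quartile, library weights and a replicate block, and edgeR gave 396 and 428. DESeq2 gave 485 above additive. No gene called was called in the opposite direction under any of these or with a library left out, and the cause of the moves listed next was not tested. Under DESeq2 synergistic rises numbered 91 and other genes above additive 191. With no filter, other genes above additive numbered 70, synergistic falls 29 and other genes below 76. With library weights, synergistic falls numbered 85 and other genes below 199. With no fold threshold, synergistic rises numbered 86, relieved falls 136, other genes above 47 and other genes below 56. Without both IFN-γ + ACs replicate 3 and IFN-γ + E. coli + ACs replicate 2, chosen after seeing the data, counts rose to 572 above and 744 below, with 146 synergistic rises, 154 relieved falls, 194 others above, 180 synergistic falls and 249 others below.

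With 1 library left out at a time, genes above additive ranged from 162 to 443 and below from 239 to 581, synergistic rises from 31 to 96, relieved falls from 46 to 116, saturating falls from 35 to 76, others above from 46 to 166, synergistic falls from 21 to 136, antagonised rises from 99 to 180, saturating rises from 69 to 112, others below from 47 to 165 and near-additive genes from 13 to 21. E. coli against ACs ranged from 781 to 1150, IFN-γ against ACs from 1753 to 2270, the combination against ACs from 2826 to 3423, against IFN-γ from 1171 to 1792 and against E. coli from 1547 to 2290. The highest interaction counts were those without IFN-γ + E. coli + ACs replicate 2 and the lowest those without E. coli + ACs replicate 1.

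Residuals of libraries with the same replicate number correlated at -0.089 to 0.085 (mean 0.005, 18 pairs), and the replicate block gave 314 genes above and 425 below. No shared effect of the replicate number was thus seen. This cannot show whether libraries of the same number shared an animal or a batch, since such sharing could leave no correlation. Of 134 called genes followed through the alternatives, 85 kept their call in all of them and 49 lost it in at least 1, of which 14 lost it only when a single library was left out. On the linear scale of normalized counts, with no test, the sign was positive for Acod1 (39.0) and Slc7a11 (131), against negative log2 interactions. A common upper quartile moved the median effect of all genes to -0.18 for the combination against ACs and -0.15 against E. coli, but only to -0.04 for the interaction. Depth limits the genes near 3 reads, such as Abcg3, Cxcl11 and Il19 in their lowest groups.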

Other observations

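Genes of haemoglobin and of heme handling, which were on no list and were picked after their values were seen, formed a further set among the antagonised rises. Each stimulus raised them alone, and the combination was called below IFN-γ alone. Hmox1, the heme oxygenase that breaks heme down, had normalized counts of 2168, 1722 and 1576 in the ACs libraries, 3999.9, 2760.0 and 3234 with E. coli, 10598, 12637 and 9577 with IFN-γ and 6607, 7451 and 7286 with both. Its groups did not overlap, and the combination lay between E. coli and IFN-γ (interaction -1.48 ± 0.20 SE, limma adjusted p = 0.000142). Blvrb, which acts on the products of heme oxygenase, had an interaction of -1.57 ± 0.25 (SE; limma adjusted p = 0.000681), and Slc48a1, which exports heme from lysosomes, of -1.72 ± 0.26 (SE; limma adjusted p = 0.000373). The globin gene Hba-a1 had normalized counts of 728, 959 and 722 in the ACs libraries, 2178, 1368 and 1643 with E. coli, 2911, 3272 and 1995 with IFN-γ and 590.1, 2102 and 1116 with both. All ACs libraries lay under all E. coli and IFN-γ libraries, whereas the combined libraries spread across the range from below ACs to IFN-γ, with replicate 2 the highest (interaction -2.35 ± 0.43 SE, limma adjusted p = 0.00208). Hbb-bs had an interaction of -2.13 ± 0.34 (SE; limma adjusted p = 0.000843) and Hbb-bt of -2.50 ± 0.35 (SE; limma adjusted p = 0.000162). Hba-a1 and Hba-a2 are near-identical copies whose reads can be split between them, so that both are uncertain. These genes kept their calls in every alternative, and without combined replicate 2 the interaction of Hba-a1 was -2.81 and that of Hmox1 -1.51.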
